A study of Homo sapiens with 4 samples.

Results

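Reelin, encoded by RELN, is a large secreted glycoprotein of the extracellular matrix. It binds the lipoprotein receptors VLDLR and LRP8 (also called ApoER2), members of the same receptor family, and the bound receptors pass the signal to the cytosolic adaptor DAB1, which is phosphorylated by kinases of the SRC family. The pathway is best known for placing neurons in the developing cortex, where Cajal-Retzius cells secrete reelin, and both receptors also take up or bind other ligands outside the brain. These 4 genes were taken from the deposited count table of 58735 genes by their symbols. RELN was chosen by its measured log2 fold change, a large fall in this same comparison, so its change is described here without a test, whereas VLDLR, LRP8 and DAB1 were included as its receptors and adaptor. Of the 4 genes, 3 passed the filter on low counts (15313 genes did in all), and DAB1 did not.

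RNA sequencing was done on Hey-A8, an established human line from an ovarian cancer, with 2 libraries in each of 2 groups: shCON, carrying a negative control hairpin, and shSPTLC2, labelled as a knockdown of SPTLC2, a subunit of the enzyme that starts sphingolipid synthesis. The design text calls the knockdown stable, whereas the treatment protocol describes transient transfection of hairpins against ZDHHC15 and harvest at 36 h, so these accounts conflict. SPTLC2 had 871 and 884 counts in the shCON libraries and 587 and 662 in the shSPTLC2 libraries, and ZDHHC15 had 0 counts in all 4. Total counts ran from 14464784 to 15084966 per library. The labels do not say that replicates came from separate cultures, so p-values measure only the spread between these libraries. The label of an ovarian cancer line was checked against markers. PAX8 (38.2 FPKM in shCON, a level scaled by gene length and library size), KRT7, KRT8, KRT18 and the mesenchymal marker VIM were abundant. CDH1 had 0 counts in every library and MUC16 had 1 count in all. Of the other ovarian and epithelial markers, WT1 was at 2.37 and MSLN at 4.08 FPKM in shCON, and EPCAM and CLDN3 were under the filter.

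The sequences just before the RefSeq transcription start of RELN, of both receptors and of the antisense gene VLDLR-AS1 are shown because these genes behaved differently in the counts. Each is the 250 bases before the start (GRCh38.p14), written 5′ to 3′ on the gene's own strand. Capitals mark matches on either strand, overlapping ones included, to the GC box GGGCGG, the element that SP1-type factors bind, and to the E-box CACGTG.
RELN, chr7:103989659-103989908, minus strand: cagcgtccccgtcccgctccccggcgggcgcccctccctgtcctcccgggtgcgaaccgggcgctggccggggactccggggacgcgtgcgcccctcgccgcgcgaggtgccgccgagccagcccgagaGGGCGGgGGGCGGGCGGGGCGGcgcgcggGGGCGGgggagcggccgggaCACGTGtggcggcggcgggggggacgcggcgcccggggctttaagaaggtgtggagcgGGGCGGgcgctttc
VLDLR, chr9:2621537-2621786, plus strand: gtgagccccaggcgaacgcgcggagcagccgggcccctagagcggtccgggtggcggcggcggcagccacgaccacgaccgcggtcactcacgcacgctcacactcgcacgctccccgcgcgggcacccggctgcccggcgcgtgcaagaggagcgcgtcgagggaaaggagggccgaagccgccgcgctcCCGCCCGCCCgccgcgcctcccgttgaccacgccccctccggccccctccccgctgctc
LRP8, chr1:53328071-53328320, minus strand: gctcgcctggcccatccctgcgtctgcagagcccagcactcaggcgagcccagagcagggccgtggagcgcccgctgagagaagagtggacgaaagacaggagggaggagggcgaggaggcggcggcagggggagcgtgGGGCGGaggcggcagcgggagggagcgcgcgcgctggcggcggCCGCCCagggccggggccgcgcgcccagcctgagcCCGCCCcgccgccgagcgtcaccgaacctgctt
VLDLR-AS1, chr9:2622374-2622623, minus strand: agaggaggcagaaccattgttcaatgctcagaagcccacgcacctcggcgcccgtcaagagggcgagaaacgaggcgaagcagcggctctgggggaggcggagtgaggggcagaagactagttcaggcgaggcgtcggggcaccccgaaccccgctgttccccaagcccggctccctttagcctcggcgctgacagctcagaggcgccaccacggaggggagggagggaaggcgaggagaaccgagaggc

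The RELN window was 83.2% G and C and held 43 CG dinucleotides, more than 99.0% of the 35116 windows in the RefSeq table, whose median was 11. It held 6 GC box matches, a number reached by 2.22% of windows, and 1 E-box, which 6.34% of windows hold. VLDLR had 41 CG dinucleotides and 2 GC boxes, LRP8 31 and 3, and VLDLR-AS1 21 and 0, while 42.6% of all windows hold at least 1 GC box. Many CG dinucleotides were not particular to RELN: the VLDLR window held more than 98.3% of windows and the LRP8 window more than 89.1%. The VLDLR-AS1 window lies in an intron of VLDLR, on the opposite strand, with 0 of its 250 bases in a VLDLR exon. All 250 bases also lie inside the counted VLDLR-AS1 gene, which reaches 2643359, with 0 in its exons. This window therefore precedes the RefSeq start but not the start of the counted gene. A match is a run of letters and says nothing of binding, and the deposited tables hold no methylation or binding data.

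RELN, the ligand (ENSG00000189056, hg38 chromosome 7, 103471784 to 103989516, minus strand), had 128 counts in the first shCON library and 142 in the other, against 13 and 21 in shSPTLC2. Exact 95% Poisson intervals, which cover counting error only, were 107 to 152 and 119.6 to 167 in shCON against 6.92 to 22.2 and 13.0 to 32.1 in shSPTLC2. Both shSPTLC2 libraries lay far below both shCON libraries. RELN was chosen for this fall, so the separation follows from the choice, and 61.5% of tested genes had groups that did not overlap. In CPM, counts scaled to a common library size with TMM, edgeR's correction for library composition, RELN was at 8.61 and 9.73 in shCON and 0.882 and 1.37 in shSPTLC2. The log2 fold change of shSPTLC2 over shCON was -3.01 ± 0.29 (SE), a level 8.08-fold lower, and only 7 of the tested genes had a more negative value, as its rank of 8 shows. RELN was at 0.725 ± 0.0576 FPKM in shCON (SD, n = 2). Its mean over all 4 libraries, 0.406 FPKM, takes in the low shSPTLC2 values. That mean was higher than the mean of 9.78% of tested genes. RELN stayed above the limit of 3 counts (0.195 to 0.206 CPM) that a count of 0 would allow. In these bulk libraries, fewer cells with RELN transcripts and less RELN RNA per cell cannot be told apart.

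**Figure D1:**
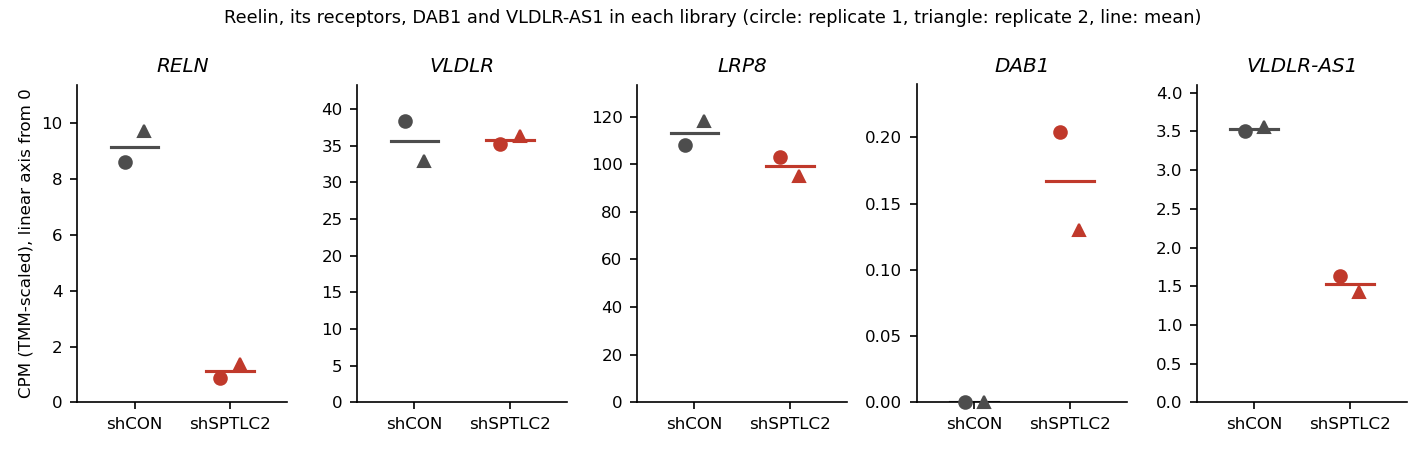
TMM-scaled CPM of each gene in each of the 4 libraries on linear axes that start at 0, with a scale of its own for each gene; circles are replicate 1, triangles replicate 2 and lines group means. RELN falls from 8.61 and 9.73 to 0.882 and 1.37 CPM and VLDLR-AS1 from 3.50 and 3.56 to 1.63 and 1.43 CPM, VLDLR overlaps between groups, and DAB1 rests on 3 and 2 counts.

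The receptor VLDLR, which binds reelin and triglyceride-rich lipoproteins (ENSG00000147852, chromosome 9, 2621834 to 2660053, plus strand), had 570 and 480 counts in shCON and 518 and 559 in shSPTLC2. Both shSPTLC2 values lay between the shCON values, so the groups overlapped. Its level was 3.81 ± 0.438 FPKM in shCON and 3.80 ± 0.1 in shSPTLC2 (SD, n = 2). The log2 fold change was 0.01 ± 0.13 (SE), with a 95% interval of -0.27 to 0.28 and an adjusted p of 0.98 in edgeR's quasi-likelihood test. Of the tested genes, 0.940% had a smaller absolute change. These libraries are compatible with any value in that interval, so a small change of VLDLR in either direction may have been missed.

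LRP8, the other reelin receptor (ENSG00000157193, chromosome 1, 53242364 to 53328070, minus strand), had 1598 and 1716 counts in shCON and 1517 and 1464 in shSPTLC2. It was at 10.5 and 11.4 FPKM in shCON and 9.93 and 9.22 FPKM in shSPTLC2, and both shSPTLC2 libraries were the lower ones. Such a separation of 2 libraries from 2 is common here: 61.5% of tested genes had groups that did not overlap. The log2 fold change was -0.18 ± 0.11 (SE; 95% interval -0.41 to 0.05), which did not pass the test (adjusted p = 0.25, edgeR's quasi-likelihood test; 0.092 to 0.67 over the 14 alternatives, DESeq2 and limma included).

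DAB1, the adaptor that binds the receptor tails (ENSG00000173406, chromosome 1, 56994778 to 58546734, minus strand), had 0 counts in both shCON libraries and 3 and 2 in shSPTLC2. All 4 values are at or under the limit of 3 counts, so no fold change is given and no difference was detectable at this depth. The few reads cannot be assigned to DAB1 with certainty either: 257 of its 7548 exonic bases in GENCODE 29 are shared with OMA1, a mitochondrial protease gene on the same strand that had 142 to 155 counts. DAB1-AS1 had 0 counts in all 4 libraries. The receptors were therefore measured in cells with little or no detected DAB1 transcript.

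Per length, the order of levels was the same in both groups. In shCON, LRP8 (11.0 ± 0.620 FPKM) stood above VLDLR (3.81 ± 0.438), VLDLR above RELN (0.725 ± 0.0576) and RELN above DAB1, which is listed at 0, and no neighbours in that order overlapped. In shSPTLC2 the same order held, with LRP8 at 9.58 ± 0.503, VLDLR at 3.80 ± 0.1, RELN at 0.0882 ± 0.0271 and DAB1 at 0.0219 ± 0.00677 FPKM (SD, n = 2), where DAB1 rests on the counts above. LRP8 was 2.55 and 3.25 times VLDLR in the shCON libraries and 2.66 and 2.38 times in the shSPTLC2 libraries, so the balance between the receptors overlapped between groups. The summed FPKM of the receptors was 21.4 and 19.5 times that of RELN in shCON and 198 and 122 times in shSPTLC2, a shift that follows from the fall of RELN by which the set was chosen.

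**Figure D2:**
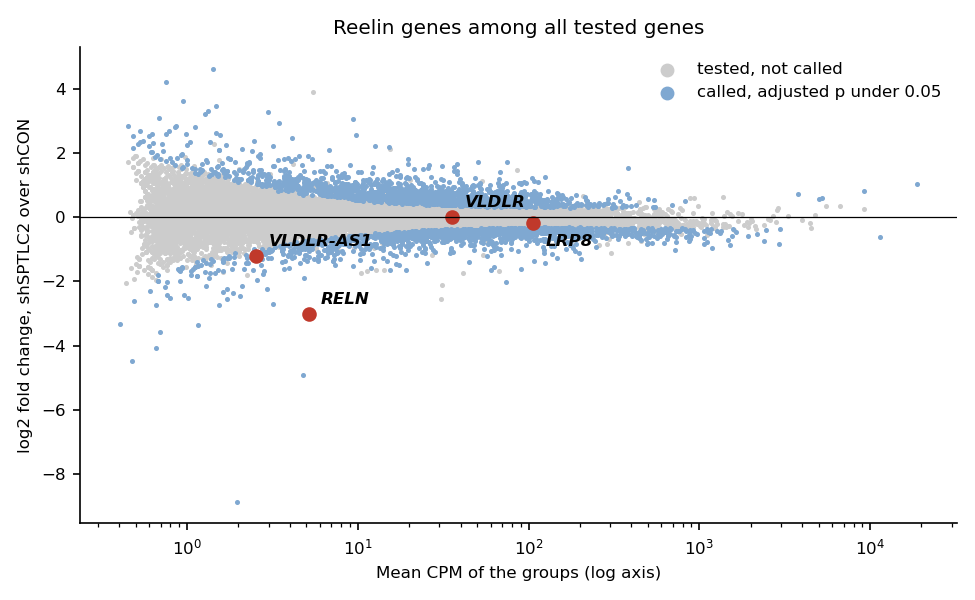
Log2 fold change (shSPTLC2 over shCON) against mean CPM on a log axis for all 15313 tested genes, called genes in blue and others in grey, with RELN, VLDLR, LRP8 and VLDLR-AS1 in red. RELN lies at -3.01, below most genes of like abundance, while VLDLR at 0.01 and LRP8 at -0.18 lie among the genes that were not called.

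VLDLR-AS1, an antisense RNA gene that overlaps the start of VLDLR (ENSG00000236404, chromosome 9, 2421597 to 2643359, minus strand), was lower in shSPTLC2 although VLDLR was not. It had 52 counts in each shCON library and 24 and 22 in the shSPTLC2 libraries. Both shSPTLC2 libraries were below both shCON libraries. This difference of -1.20 ± 0.32 on the log2 scale passed edgeR's test with an adjusted p of 0.017. It no longer passed in DESeq2 (adjusted p = 0.061) or with limma on log2(FPKM + 0.1) (0.051). Leaving out shSPTLC2 replicate 1 gave -1.30 (adjusted p = 0.10) and leaving out replicate 2 gave -1.11 (0.13), neither of them called. In GENCODE 29, 738 exonic bases are shared by the genes, out of 9339 in VLDLR and 5989 in VLDLR-AS1. Since no source used here states how strand was treated in counting, reads of that stretch cannot be told apart.

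Among all 15313 tested genes, 19.4% were called at an adjusted p under 0.05, of which 10.4% of tested genes were higher and 9.0% lower in shSPTLC2, and the median log2 fold change was 0.005. The genes that act around reelin were read against these shares. In the first group, the intracellular signalling genes around DAB1, 3 of 24 tested genes rose, 4 fell and 17 did not pass the test, with a median of -0.07. FYN, a SRC-family kinase that phosphorylates DAB1, fell (log2 fold change -0.48 ± 0.11, adjusted p = 0.0089), as did its relative YES1 (-0.35 ± 0.12, 0.041), whereas SRC had a value of 0.06 ± 0.10. The integrin gene ITGB1 (-0.43 ± 0.12) and the DAB2-interacting gene DAB2IP (-0.33 ± 0.11) fell. CDK5R1, the activator of the neuronal kinase CDK5, rose from 3.23 and 3.77 to 6.72 and 6.5 CPM (0.92 ± 0.24), the microtubule protein gene MAPT, encoding tau, rose from 3.23 and 5.41 to 8.55 and 8.52 CPM (0.98 ± 0.25), and LIMK1, the kinase of the actin-severing protein cofilin, rose by 0.49 ± 0.13. ITGA3, an integrin subunit (0.11 ± 0.12), and CFL1, cofilin itself (-0.11 ± 0.11), were the most abundant genes per length that were not called. None (0) of the 7 calls was kept without shSPTLC2 replicate 1 (adjusted p = 0.11 to 0.40, edgeR) or without shSPTLC2 replicate 2 (0.054 to 0.14). YES1 (0.14) and MAPT (0.05) were also not called without shCON replicate 1, nor LIMK1 without shCON replicate 2 (0.071), and YES1 and DAB2IP were not called in DESeq2 or with library totals (adjusted p = 0.051 to 0.099). With limma on log2(FPKM + 0.1) in all 4 libraries, FYN and CDK5R1 kept their calls, whereas YES1 (adjusted p = 0.11), MAPT (0.11), LIMK1 (0.083), ITGB1 (0.074) and DAB2IP (0.10) did not.

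Of the 6 genes of the ubiquitin ligase that degrades phosphorylated DAB1, 1 fell and 5 did not pass the test, with a median of -0.04. ELOC, the elongin C subunit, fell by 0.35 on the log2 scale (adjusted p = 0.040, edgeR). ELOB (0.04 ± 0.11) and RNF7 (0.01 ± 0.11) were the most abundant of the others. ELOC lost its call when shCON replicate 2 (adjusted p = 0.16), shSPTLC2 replicate 1 (0.23) or shSPTLC2 replicate 2 (0.24) was left out, nor was it called in DESeq2 (0.053), with limma (0.089) or with library totals (0.078). SOCS7, a subunit that binds DAB1, was called lower without shCON replicate 1 (-0.46, adjusted p = 0.0081), without the filter (0.045) and after GC correction (0.046).

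Of 8 genes for proteases that cut reelin, 5 were tested, 1 rose, 1 fell and 3 did not pass, with a median of -0.11. ADAMTS2, a procollagen and reelin protease, rose from 4.91 and 6.30 CPM to 8.82 and 13.4 CPM (log2 fold change 0.99 ± 0.23, adjusted p = 0.0087, edgeR). PLAT, tissue plasminogen activator, fell from 26.5 and 33.2 CPM to 19.1 and 20.9 CPM (-0.58 ± 0.15, adjusted p = 0.012). ADAMTS3, a main reelin-inactivating protease of the brain, had a log2 fold change of 0.34 ± 0.26, and ADAM10 one of -0.11 ± 0.11. The PLAT call was lost when shSPTLC2 replicate 1 (adjusted p = 0.17) or replicate 2 (0.065) was left out, and that of ADAMTS2 when shSPTLC2 replicate 2 was (0.19). With limma on all 4 libraries neither PLAT (0.076 to 0.081) nor ADAMTS2 (0.086 to 0.09) was called. ADAMTS5 was called lower without shCON replicate 1 (-1.19, adjusted p = 0.046), with RLE scaling (0.05) and without the filter (0.042). MEP1A had 0 counts in all libraries, and ADAMTS4 and MEP1B were also under the filter.

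The other genes of the lipoprotein receptor family went both ways: of 15 genes, 11 were tested, 2 rose, 1 fell and 8 did not pass, with a median of 0.17. LRP1B, a giant receptor of the family, had 23 and 15 counts in shCON against 2 and 1 in shSPTLC2, a ratio of 12.9 after scaling to library size, with an exact 95% interval of 4.11 to 65.6 for counting error. It passed the filter on low counts only through the shCON libraries, where it is high, so its call (the 1 that fell) is not independent of the filter and is given as a description. It was not called with limma or without either shSPTLC2 library. LRP3 rose from 3.97 and 3.01 CPM to 6.04 and 8.06 CPM (1.01 ± 0.26) and the Wnt co-receptor gene LRP5 rose by 0.51 ± 0.13. After a correction for GC content neither LRP3 (0.73, adjusted p = 0.057) nor LRP5 (0.29, 0.13) was called, nor were they without shSPTLC2 replicate 2 (0.17 and 0.19), nor LRP5 without replicate 1 (0.066). With limma on all 4 libraries 0 of the 11 were called (LRP3 0.059 to 0.066, LRP5 0.071 to 0.074). LRP10 (0.09 ± 0.11) and LDLRAD3 (0.17 ± 0.12) were the most abundant members not called.

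**Figure D3:**
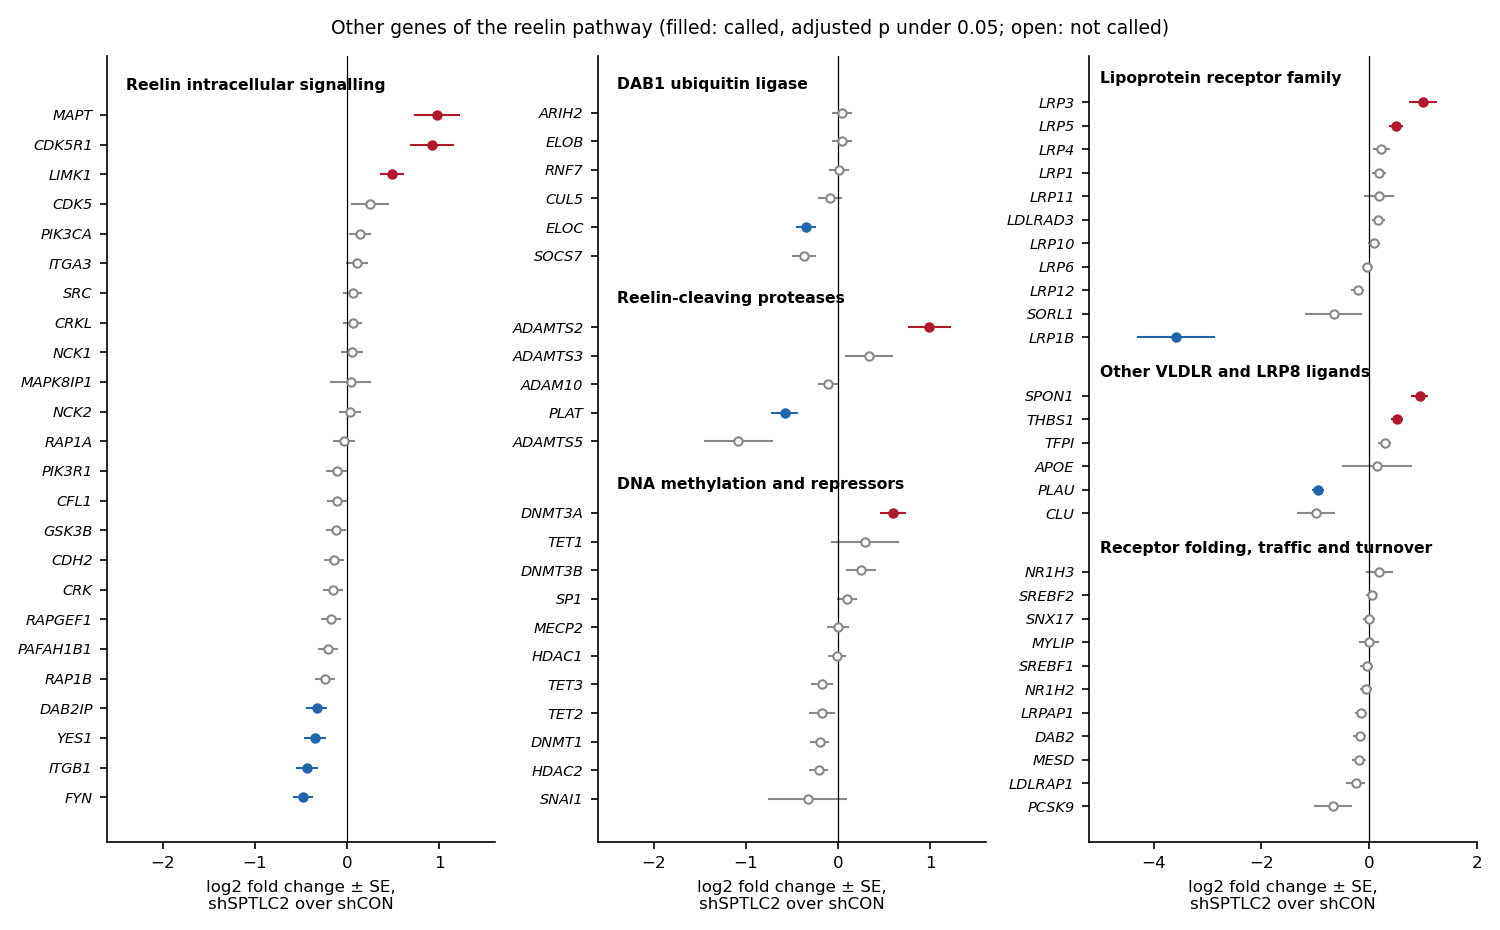
Log2 fold change ± SE (shSPTLC2 over shCON) of the tested genes reported in 7 lists around reelin, red for called higher, blue for called lower and open grey for not called. Most genes lie near 0, LRP1B is the lowest of its family, and no gene of receptor folding, traffic and turnover is called in this fit, though MESD was without shCON replicate 1.

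Genes that fold, move or degrade these receptors gave 0 calls among 11 tested (edgeR's quasi-likelihood test), with a median of -0.05 and values from -0.67 to 0.19. Without shCON replicate 1, 1 of them, the receptor chaperone gene MESD, was called lower (-0.35, adjusted p = 0.039). SNX17, a sorting nexin that recycles the receptors, and SREBF2, a sterol-regulated transcription factor, were the most abundant, at 0.00 ± 0.11 and 0.05 ± 0.10. MYLIP, the ligase that marks VLDLR and LRP8 for degradation, stood at 3.34 FPKM in shCON and 3.32 FPKM in shSPTLC2. Of 9 genes for other ligands of VLDLR or LRP8, 6 were tested, 2 rose, 1 fell and 3 did not pass, with a median of 0.22. SPON1, F-spondin, which binds LRP8, rose from 21.7 and 19.0 CPM to 45.2 and 32.9 CPM (0.94 ± 0.16, adjusted p = 0.00097), and THBS1, thrombospondin-1, which binds both receptors, rose by 0.52 ± 0.11 (adjusted p = 0.0047). PLAU, urokinase, a secreted protease, had 23471 and 22375 counts in shCON and 11903 and 12341 in shSPTLC2 (-0.95 ± 0.11, adjusted p = 6.5e-05). TFPI (0.29 ± 0.12) and the chaperone gene CLU, clusterin (-0.98 ± 0.35, adjusted p = 0.061), were the most abundant not called. PLAU was called in all 14 alternatives. THBS1 was not called without shSPTLC2 replicate 1 (0.066) or replicate 2 (0.089), nor SPON1 without replicate 1 (0.053). Without shCON replicate 1, the log2 fold change of TFPI was 0.36. SELENOP, under the filter in the main fit, had 5 and 0 counts in shCON and 7 and 17 in shSPTLC2. It entered the fit without shCON replicate 1 only through shSPTLC2, where it is high, so no call is drawn from it.

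The RELN promoter is known to be silenced by DNA methylation in several tissues and cancers, so genes of that machinery were read too. Of 11 tested, 1 rose and 10 did not pass, with a median of -0.01. DNMT3A, a de novo DNA methyltransferase, rose from 18.2 and 19.4 CPM to 27.4 and 29.6 CPM (log2 fold change 0.60 ± 0.14, adjusted p = 0.0065, edgeR), while the maintenance enzyme DNMT1 stood at -0.20 ± 0.10 and HDAC1 at -0.01 ± 0.10. DNMT3A was not called when shSPTLC2 replicate 1 (adjusted p = 0.061) or replicate 2 (0.091) was left out, or with limma (0.077 to 0.083), and DNMT1 was called lower without shCON replicate 1 (-0.27, adjusted p = 0.046). Methylation was not measured, and no relation of these genes to RELN was tested.

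No tested gene near RELN shared the size of its fall, but RELN was chosen for that fall, so this contrast follows from the choice. Of 17 tested genes within 1 Mb, 0 were called (edgeR), beside 19.4% of all tested genes. Their median was -0.30 and the lowest value was -0.59. The nearest on each side were PSMC2, a proteasome ATPase gene at -102.4 kb (toward lower coordinates) (-0.33 ± 0.12, adjusted p = 0.055), and ORC5, an origin recognition subunit gene at 136.8 kb (-0.42 ± 0.19, adjusted p = 0.14). PSMC2 was called lower without shCON replicate 2 (-0.41, adjusted p = 0.011) and after GC correction (0.037), and ORC5 without shCON replicate 2 (-0.65, adjusted p = 0.0092), so that 3 neighbours were called lower in that fit and 1 without shCON replicate 1. Of the genes inside the RELN body, AC005064.1 and RN7SKP86 had 0 counts.

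The neighbour counts below stand beside the 10.4% of all tested genes called higher and the 9.0% called lower. Around VLDLR, 1 of 5 tested neighbours rose and 1 fell. The ciliogenesis factor gene RFX3, 558.2 kb away, rose by 1.07 ± 0.25 (adjusted p = 0.0074, edgeR), and VLDLR-AS1 fell as given above. RFX3 lost its call when shSPTLC2 replicate 2 was left out (0.13) and with limma (0.075 to 0.083). PUM3, 60.4 kb away, had a log2 fold change of -0.25 ± 0.11, and the chromatin remodeller gene SMARCA2 one of -0.19 ± 0.14. Around LRP8, 1 of 27 rose (ECHDC2, 0.73 ± 0.13) and 3 fell (MAGOH, -0.65 ± 0.13, ZFYVE9, -0.59 ± 0.13, and COA7, -0.51 ± 0.12). LINC01771, 0.2 kb from LRP8 toward higher coordinates, was not called (adjusted p = 0.25, edgeR). It passed the filter only through shSPTLC2, where it is high, so no call is drawn from it in any fit. MAGOH, a subunit of the exon junction complex at -3.8 kb from LRP8, had an adjusted p of 0.0037. None (0) of these 4 calls was kept without shSPTLC2 replicate 1 (adjusted p = 0.061 to 0.11, edgeR), and COA7 (0.13) and MAGOH (0.057) were not called without replicate 2. Around DAB1, 1 of 13 rose (MYSM1, a histone deubiquitinase gene, 0.68 ± 0.12) and 1 fell (JUN, the AP-1 subunit gene, -0.41 ± 0.11). JUN was not called without shSPTLC2 replicate 1 (0.27) or replicate 2 (0.10) or with limma (0.061 to 0.062), and without shSPTLC2 replicate 1 only MYSM1 was called. OMA1, which overlaps DAB1, had a log2 fold change of 0.03 ± 0.18, and the nearest tested genes reported on either side, PRKAA2 and AL035411.1, were not called (0.37 ± 0.14 and -0.33 ± 0.42). PRKAA2 was called higher with library totals (0.42, adjusted p = 0.049) and without shCON replicate 1 (0.53, 0.005), and LINC01358 without shCON replicate 2 (0.50, adjusted p = 0.02).

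**Figure D4:**
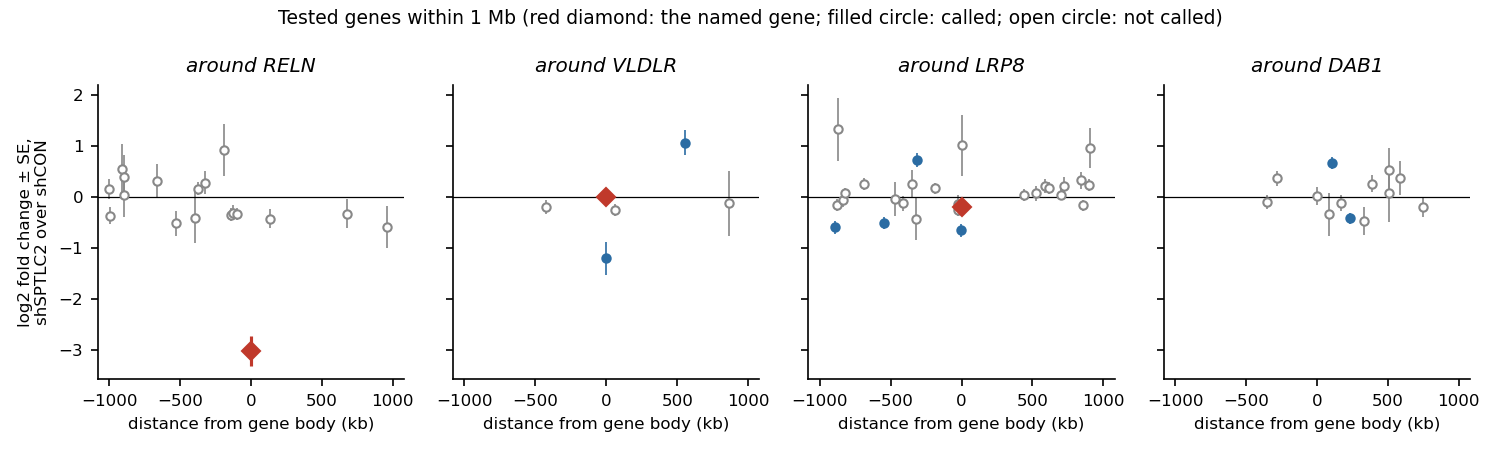
Log2 fold change ± SE of the tested genes reported within 1 Mb of each gene body, plotted by distance from it in kb (negative toward lower coordinates, 0 where the bodies overlap); the red diamond is the gene itself, filled circles were called and open circles were not, and DAB1 was not tested. RELN, chosen for its fall, is at -3.01, and its 17 neighbours run from -0.59 to 0.93.

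The 6 coding genes whose pattern over the 4 libraries was most like that of RELN, out of 12044 compared, were LCN1, HIST1H2BC, FGF13, B3GALT5, PLXNA4 and AMIGO2. Likeness was the Euclidean distance between log2 CPM values centred on each gene's mean, and it ran from 0.70 for LCN1 to 1.08 for AMIGO2. All 6 are genes chosen for a large fall, by way of RELN, so their changes are given without a test. AMIGO2, an adhesion gene, went from 127 and 111 CPM to 31.7 and 26.7 CPM, and PLXNA4, a semaphorin co-receptor gene, from 8.08 and 7.12 CPM to 1.36 and 2.73 CPM. FGF13, an intracellular growth factor homologue, went from 61 and 40 counts to 8 and 15. LCN1 and HIST1H2BC have near-identical copies in the genome, so their counts are uncertain.

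Reelin is made by neurons and by some endothelial and stromal cells, so markers of those cells were read as well. The marker calls below stand beside the 10.4% of all tested genes called higher and the 9.0% called lower. The summed level of 9 neuronal markers was 40.6 and 46.7 CPM in shCON and 61.6 and 62.7 CPM in shSPTLC2, of which RBFOX3 made up 29.9, 35.3, 44.7 and 44.8 CPM. Of the 9, 4 were tested, 2 rose (RBFOX3, 0.46 ± 0.13, and GAD1, 0.71 ± 0.18) and 0 fell. Neither was called without shSPTLC2 replicate 1 (adjusted p = 0.16 and 0.12, edgeR) or replicate 2 (0.14 and 0.089), nor RBFOX3 without shCON replicate 1 (0.076) or after GC correction (0.059), and limma called neither (0.065 to 0.11). Of the markers of Cajal-Retzius cells, CALB2 had 18 and 13 counts in shCON and 26 and 38 in shSPTLC2 (1.01 ± 0.41, adjusted p = 0.097), while TBR1 and TP73 had at most 2 counts in a library. Endothelial markers summed to 62.0 and 60.0 CPM in shCON and 111 and 133 CPM in shSPTLC2, of which CDH5 made up 57.1 and 55.1 CPM and 108 and 130 CPM. Of the 4 tested, CDH5 rose (1.09 ± 0.12), PECAM1 fell (-1.71 ± 0.46) and 2 were not called, and PECAM1 lost its call when shSPTLC2 replicate 1 (0.21), shSPTLC2 replicate 2 (0.054) or shCON replicate 1 (0.054) was left out and with limma (0.066 to 0.092). PECAM1 also passed the filter only through shCON, so its call is a description. Of 6 mesenchymal markers 4 were tested and COL1A1 rose (1.52 ± 0.30; adjusted p = 0.069 without shSPTLC2 replicate 1), with sums of 6426 and 6068 CPM in shCON and 5664 and 6012 in shSPTLC2. Of 10 ovarian and epithelial markers 6 were tested and PAX8 (0.73 ± 0.11) and MSLN (0.61 ± 0.16) rose, MSLN not without shSPTLC2 replicate 1 (0.12) or replicate 2 (0.13), nor after GC correction (0.16). Leukocyte markers summed to 0.137 to 0.339 CPM per library, with 0 of 5 tested. The part of these markers in the fall of RELN was not tested.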

How the data were processed

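A count table and an FPKM table were used for 2 shCON and 2 shSPTLC2 libraries of Hey-A8 cells. The deposited counts are raw read counts per Ensembl gene, and the deposited FPKM are these counts scaled by the table's gene length and 1 factor per library (largest relative deviation 5.1e-15). Per the submitters' processing notes, the tools were HISAT2, StringTie and SAMtools and the build hg38. How reads were counted, and on which strand, is not given in the sources used here.

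Counts were tested in R 4.3.3 with edgeR 4.0.16: filterByExpr (minimum count 10, total 15), TMM, robust quasi-likelihood F test, two-sided, Benjamini-Hochberg over 15313 genes, called under 0.05, SE derived from F. The fit was tested on simulated data. Alternatives used DESeq2 1.42.0, limma 3.58.1 on log2(FPKM + pseudocount), other scalings and filters, a replicate block, GC correction and each library left out. Within-group chi-square tests gave 36.7% (shCON) and 28.4% (shSPTLC2) of genes with p under 0.05, so replicates differed by more than sampling noise.

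The members, lists and the rule for named genes were chosen with earlier results of these data known. The rule named the members and their antisense genes, every called gene and the 2 most abundant others per list, called and nearest neighbours within 1 Mb, and the 6 coding genes (mean of at least 1 CPM) most like RELN. Other genes, markers included, were named after their values were seen. Promoter windows are from RefSeq. A few genes of these lists and neighbourhoods are not reported here and were left out of their counts.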

Additional observations from a re-analysis of the deposited data

How the results depend on the processing

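RELN was lower in all 14 alternatives; the log2 fold change ran from -3.11 to -2.93 with a shCON library left out and from -3.37 to -2.74 over all 4 libraries left out in turn. With limma it was -2.14 on log2(FPKM + 0.1) and -0.66 on log2(FPKM + 1), scales on which a pseudocount shrinks the change of a gene this low. VLDLR (-0.11 to 0.11) and LRP8 (-0.26 to -0.12) were not called in any of the 14, and DAB1 was under the filter. The number of genes called over the whole table, 2971, was 640 to 4026 with 1 library left out (640 without shSPTLC2 replicate 1, 994 without shSPTLC2 replicate 2), 1397 with limma on log2(FPKM + 0.1) and 1450 on log2(FPKM + 1). Of these calls 1593 were higher and 1378 lower, against 1927 and 1033 with library totals and 1323 and 1667 after GC correction. Same-numbered libraries of the groups deviated from their group means with a correlation of -0.013 across tested genes, so no shared shift was seen. This value cannot tell whether they were cultured or prepared together, which the labels do not state. With a replicate block 3307 genes were called, RELN was at -3.03, VLDLR at 0.01 (adjusted p = 0.97, edgeR) and LRP8 at -0.18 (0.29). The 60 other named genes include ones not called in the main fit, which had no call to lose, so 60 is not the number of calls. With all 4 libraries, 20 genes lost their call with limma on log2(FPKM + 0.1) and 19 on log2(FPKM + 1). More genes lost it when either shSPTLC2 library was left out. At 3 counts per library, levels under 0.195 to 0.206 CPM could not be told from 0.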
